A study of Mus musculus with 158 samples.

Results

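Regulatory DNA was described at the loci of 10 genes that encode transcription factors and a coactivator of B lymphoid cells. The genes were Pax5, Ebf1, Ikzf1, Spi1, Spib, Spic, Irf4, Irf8, Pou2af1 and Bach2, 10 of the 21728 protein-coding genes on the autosomes and chromosome X. A locus was the annotated gene body with 20 kb on both sides (mm10, GENCODE M21), and its members' data were all DNase I hotspots overlapping it. DNase I cuts DNA where nucleosomes are displaced, and a hotspot is a stretch in which cuts were called as enriched at a false discovery rate of 5%. The hotspots came from F1 hybrid mice, aged 8 weeks, of C57BL/6J females (B6) crossed with SPRET/EiJ (B6xSPRET), PWK/PhJ (B6xPWK), CAST/EiJ (B6xCAST), C3H/HeJ (B6xC3H) or the strain named in the label B6x129. Whole liver, kidney and lung, and B cells from the femoral marrow of females, enriched by removing cells with CD43 or CD11b, were measured in 67 samples. The deposited lists pool the samples of each hybrid and tissue, which gave 20 adult sets, 5 in each tissue, with 2 to 6 samples in a set. A further set held B6xCAST mouse embryonic stem cells (mESC), and 17 RNA-seq samples covered the adult tissues. The study lists these RNA samples under B6xC3H, B6xPWK and B6xSPRET and none under B6x129. Their hybrids were not balanced over the tissues, and the RNA test had no term for hybrid. In bulk samples fewer cells of a type and a weaker signal per cell cannot be told apart.

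B lymphocytes arise from marrow progenitors through a sequence of factors that act on each other's genes. PU.1, encoded by Spi1, and Ikaros, encoded by Ikzf1, act in early progenitors, Ebf1 specifies the B lineage and Pax5 commits cells to it. Irf4 and Irf8 bind composite sites together with PU.1 or its relative Spi-B, Pou2af1 is a coactivator of octamer-binding proteins, and Bach2 is a repressor that delays plasma cell differentiation. Spic encodes another PU.1 relative, best known from red pulp macrophages of the spleen.

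The following sequences are shown because each lay in a hotspot of B cells that no liver or kidney set had at that place. For Pax5, Ebf1, Irf8 and Ikzf1, each is the central 300 bp of 1 region that was called in the 5 B cell sets but in no lung, liver or kidney set, the one with the highest median B cell score. These were read from the plus strand of GRCm38 at chr4:44678751-44679050, chr11:44775607-44775906, chr8:120758018-120758317 and chr11:11758921-11759220. For Spib, the RefSeq promoter (GRCm38.p6, minus strand, chr7:44532022-44532321) is given. Every B cell and lung set had a hotspot within 1 kb of the Spib start. Capitals mark matches, on either strand, to 7 short patterns: GAGGAAG (PU.1 type), GGAANNGAA (ETS-IRF composite type), CCCNNGGG (EBF type), ATGCAAA (octamer type), CACCTG (E box type), TGTGGT (RUNX type) and TGGGAA (Ikaros type).
Pax5 intron: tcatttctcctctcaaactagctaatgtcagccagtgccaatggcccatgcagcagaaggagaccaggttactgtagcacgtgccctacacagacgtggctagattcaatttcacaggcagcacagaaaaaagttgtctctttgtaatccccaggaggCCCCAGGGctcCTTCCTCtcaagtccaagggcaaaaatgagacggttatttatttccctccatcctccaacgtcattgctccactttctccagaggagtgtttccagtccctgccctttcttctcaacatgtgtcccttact
Ebf1 intron: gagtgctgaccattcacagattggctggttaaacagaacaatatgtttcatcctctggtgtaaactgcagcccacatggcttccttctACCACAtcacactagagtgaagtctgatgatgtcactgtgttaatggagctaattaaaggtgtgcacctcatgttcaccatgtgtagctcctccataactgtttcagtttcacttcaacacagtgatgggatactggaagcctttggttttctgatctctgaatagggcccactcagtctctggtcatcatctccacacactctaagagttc
Irf8 downstream: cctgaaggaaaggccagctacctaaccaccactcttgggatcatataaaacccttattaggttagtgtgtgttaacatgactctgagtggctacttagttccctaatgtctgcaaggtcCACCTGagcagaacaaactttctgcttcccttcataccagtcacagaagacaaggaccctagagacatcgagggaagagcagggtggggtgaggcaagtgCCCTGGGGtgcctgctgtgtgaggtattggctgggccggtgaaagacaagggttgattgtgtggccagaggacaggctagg
Ikzf1 intron: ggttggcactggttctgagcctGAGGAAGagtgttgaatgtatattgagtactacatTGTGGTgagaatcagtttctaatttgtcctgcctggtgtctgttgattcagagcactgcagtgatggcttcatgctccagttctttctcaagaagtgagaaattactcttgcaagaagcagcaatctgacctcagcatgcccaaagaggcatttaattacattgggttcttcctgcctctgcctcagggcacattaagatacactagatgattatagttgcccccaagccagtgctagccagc
Spib promoter: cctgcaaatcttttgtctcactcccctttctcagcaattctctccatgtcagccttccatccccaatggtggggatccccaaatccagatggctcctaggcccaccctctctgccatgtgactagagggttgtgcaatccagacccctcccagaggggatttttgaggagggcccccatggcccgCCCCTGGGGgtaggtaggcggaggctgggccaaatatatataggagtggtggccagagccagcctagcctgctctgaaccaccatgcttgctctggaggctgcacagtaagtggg
The Pax5 region lay 31586 bp into the gene and within the antisense gene Gm12462, and its capitals are an EBF type match followed by a PU.1 type match. The Ikzf1 region lay 74068 bp into the gene and held a PU.1 type and a RUNX type match. The Ebf1 region, 158440 bp into the gene, held 1 RUNX type match. The Irf8 region, 21810 bp from the start and beyond the end of the gene, lay in the coding gene Gm20388. It held an E box type and an EBF type match. A match of letters describes the sequence only.

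Depth differed between tissues. The 5 B cell sets held 78387 to 156078 hotspots and covered 1.10 to 2.61% of the genome, against 152006 to 295565 hotspots and 1.66 to 4.89% in the other 15 sets. Cover was therefore expressed as relative cover, the percent of a locus inside hotspots divided by the percent of the genome inside hotspots of the same set, where 1 is the genome average. As a check of the labelled cells, the starts of 7 of 9 B lineage markers were open in all 5 B cell sets, against 52.3% of all protein-coding genes. In the B cell sets none of 4 hepatocyte and none of 4 nephron markers had a start hotspot, and neither did 3 of 5 granulocyte markers (Mpo, Elane and Ltf). Of all protein-coding genes, 35.1% had none in these sets. Open in all 5 B cell sets were 1 of the 5 granulocyte, 2 of 4 erythroid, 3 of 8 macrophage and monocyte, 1 of 3 endothelial and none of 6 T and NK cell markers, and their part in the results was not tested. In lung 5 of the 9 B lineage markers were open in all 5 sets, in liver 2 and in kidney 2. Of all protein-coding genes, 61.6, 61.4 and 64.2% were open in the same order.

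All 10 loci had a higher relative cover in B cells than in the mean of lung, liver and kidney, but by very different amounts. 50.4% of the 18204 loci tested were called higher in B cells (limma, two-sided, adjusted p under 0.05), and the members' count is read against that share. The median difference over all loci was 0.21 on the log2 scale and that of the 10 loci 1.98. At 7 loci, Irf4, Spib, Ikzf1, Pax5, Pou2af1, Irf8 and Ebf1, the difference was between 1.80 and 2.59, larger than at 99.1 to 99.9% of all loci. Spi1 followed with 0.89, and Bach2 and Spic lay at 0.48 and 0.49, with 69.6 and 69.9% of loci below them. In 8 of the 10 loci every B cell set lay above all 15 other sets, against 18.1% of loci tested, and the exceptions were Spic and Bach2. Without scaling to the set, the median over all loci moved to -0.45, 7 of the 10 loci were still called higher, and Bach2 changed direction.

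**Figure D1:**
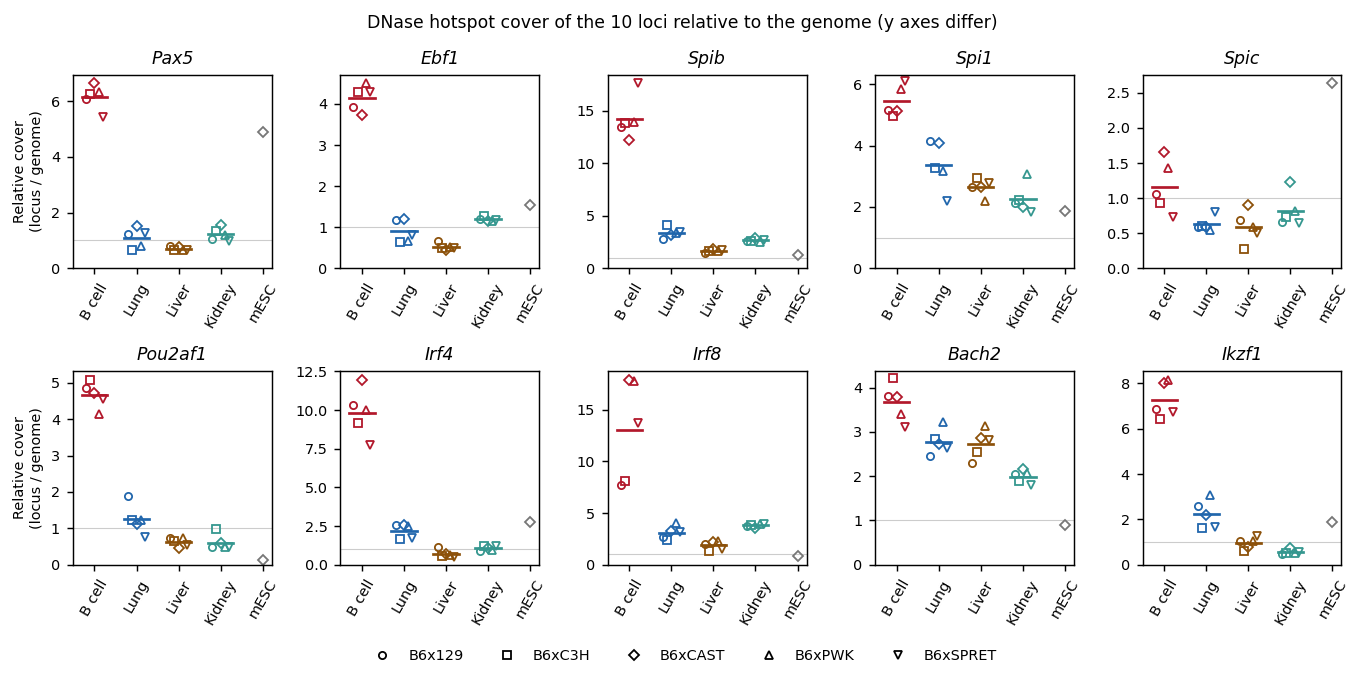
Relative cover (y axis, percent of the locus inside hotspots over percent of the genome, linear, a separate scale in each panel) of the 10 loci in each hotspot set, by tissue (x axis). Symbols are the 5 hybrids, bars are means of 5 sets, mESC is 1 set and the grey line marks the genome average of 1. The B cell sets stand above all other adult sets at every locus except Spic and Bach2.

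The lineage factors Pax5 and Ebf1 were the most alike. Pax5, on chromosome 4 (44524757 to 44710487, minus strand), had a relative cover in B cells of 6.66 in B6xCAST, 6.35 in B6xPWK, 5.42 in B6xSPRET, 6.08 in B6x129 and 6.25 in B6xC3H. Lung ranged from 0.64 to 1.53, liver from 0.64 to 0.82 and kidney from 0.99 to 1.55. Among the adult sets none outside B cells rose above 1.55. The difference was 2.17 ± 0.10 (SE) on the log2 scale (limma, adjusted p = 4.37e-13), and it came with 15515 to 39235 bp of hotspot per B cell set against 2417 to 12728 bp in the 15 other adult sets. Ebf1, on chromosome 11 (44617317 to 45008091, plus strand), reached 4.16 ± 0.32 (SD, n = 5) in B cells against 1.19 ± 0.05 in kidney, 0.90 ± 0.27 in lung and 0.52 ± 0.08 in liver. Its difference was 1.80 ± 0.09 (SE, limma, adjusted p = 1.72e-12). Over the 20 sets the pattern most like that of Pax5 among all loci was that of Ebf1, and the reverse also held (Pearson r = 0.98, 20 sets that share the tissue contrast and the scaling).

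The Ikzf1 locus had the largest log2 difference of the 10 between lung and the mean of liver and kidney. In B cells its relative cover was 8.02 in B6xCAST, 8.17 in B6xPWK, 6.74 in B6xSPRET, 6.88 in B6x129 and 6.44 in B6xC3H, and the difference from the other tissues was 2.28 ± 0.10 (SE, limma, adjusted p = 5.45e-13). Lung followed with 2.22 ± 0.62 (SD, n = 5), liver with 0.94 ± 0.26 and kidney with 0.55 ± 0.11. Hotspots numbered 26 to 47 in the B cell sets and 5 to 10 in the kidney sets. Relative cover ranged from 1.60 to 3.06 in lung, 0.60 to 1.27 in liver and 0.45 to 0.74 in kidney.

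The ETS factors did not behave alike. Spib, a short gene on chromosome 7 (44525993 to 44532071, minus strand), had the highest mean relative cover of the 10 in B cells, with 12.2 in B6xCAST, 13.95 in B6xPWK, 17.7 in B6xSPRET, 13.5 in B6x129 and 13.9 in B6xC3H. The highest value in the other adult sets was 4.15, in B6xC3H lung. The Spib window also holds parts of Mybpc2, Pold1 and Nr1h2, and the Spi1 window overlaps Psmc3, Slc39a13 and Mybpc3. The windows of Irf8, Bach2 and Ikzf1 overlap 1 further coding gene each (Gm20388, Gja10 and Fignl1). Spi1, on chromosome 2 (91082390 to 91115756, plus strand), reached 4.97 to 6.11 in B cells, 2.18 to 4.15 in lung, 2.18 to 2.94 in liver and 1.82 to 3.08 in kidney. Its B cell sets were the highest, yet the difference of 0.89 ± 0.11 (SE, limma, adjusted p = 6.52e-07) was under that of Spib, 2.30 ± 0.08 (SE, adjusted p = 2.45e-14), and without scaling it was 0.24 (limma, adjusted p = 0.29). Macrophages also use PU.1. Of the 8 macrophage and monocyte markers, 6 were open at the start in all 5 liver sets, 5 in lung and 1 in kidney. In the same order, 61.4, 61.6 and 64.2% of all protein-coding genes were. The part of macrophages in the Spi1 values was not tested. Spic, on chromosome 10 (88674772 to 88685015, minus strand), had little cover in the adult sets, 0.73 to 1.66 in B cells and 0.28 to 1.23 in the others, with 2 to 9 hotspots per set. Its difference of 0.49 ± 0.10 (SE, limma, adjusted p = 0.00033) fell to 0.03 without scaling (limma, adjusted p = 0.87).

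The interferon regulatory factors were both far above the genome average in B cells. Irf4, on chromosome 13 (30749226 to 30766976, plus strand), gave 11.96 in B6xCAST, 10.0 in B6xPWK, 7.75 in B6xSPRET, 10.3 in B6x129 and 9.18 in B6xC3H. Among the other adult sets its highest value was 2.59, in B6x129 lung, and the difference of 2.59 ± 0.10 (SE, limma, adjusted p = 1.41e-13) was the largest of the 10. Irf8, on chromosome 8 (120736358 to 120756694, plus strand), gave 17.9 in B6xCAST, 17.8 in B6xPWK, 13.7 in B6xSPRET, 7.71 in B6x129 and 8.11 in B6xC3H. The 5 B cell sets all exceeded the other adult sets, whose highest was 4.03, but they spread more than at any other of the 10 loci (SD 4.98). The difference was 1.95 ± 0.12 (SE, limma, adjusted p = 6.10e-11).

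Pou2af1, on chromosome 9 (51213708 to 51240080, plus strand), gave 4.13 to 5.08 in B cells, 0.76 to 1.88 in lung, 0.46 to 0.74 in liver and 0.48 to 0.98 in kidney. Its difference was 2.02 ± 0.10 (SE, limma, adjusted p = 2.08e-12). Bach2, on chromosome 4 (32238804 to 32586108, plus strand), was the locus least set apart. Its relative cover was 3.66 ± 0.42 (SD, n = 5) in B cells, 2.78 ± 0.29 in lung, 2.73 ± 0.32 in liver and 1.99 ± 0.15 in kidney, and the difference was 0.48 ± 0.07 (SE, limma, adjusted p = 7.97e-06). In base pairs the Bach2 locus held more hotspot DNA in liver, 32560 to 43523 bp, than in B cells, 16201 to 38377 bp, and unscaled the difference was -0.19 (limma, adjusted p = 0.25).

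**Figure D2:**
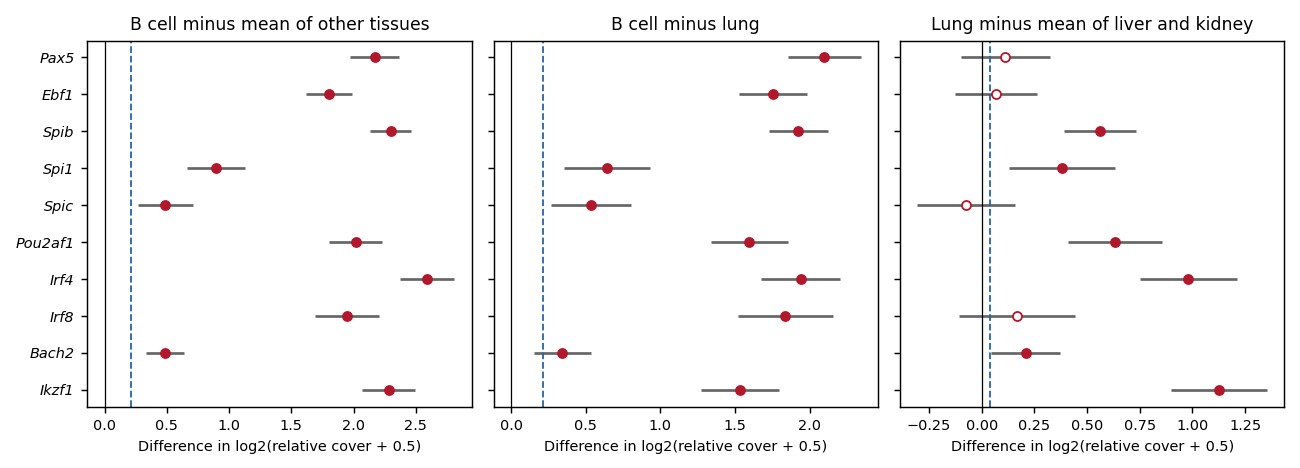
Differences in log2(relative cover + 0.5) (x axis) at the 10 loci (y axis) for 3 contrasts, with 95% confidence intervals from limma over 20 sets. Filled points passed an adjusted p of 0.05 over all loci, open points did not, and the dashed line is the median over all loci; 7 loci lie between 1.80 and 2.59 in the left panel.

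Whole lung was the closest organ for several of these genes. Against lung alone, the 10 loci were all higher in B cells, where 47.2% of all loci were called higher (limma). The differences ran from 0.34 at Bach2 and 0.54 at Spic to 2.10 at Pax5. When lung was compared with the mean of liver and kidney, 6 of the 10 loci were higher in lung against 30.1% of all loci, with Ikzf1 at 1.13 ± 0.11 (SE, limma, adjusted p = 7.86e-08) and Irf4 at 0.98 ± 0.11 (SE, adjusted p = 5.28e-07). Pou2af1 at 0.63, Spib at 0.56, Spi1 at 0.38 and Bach2 at 0.21 also passed. Pax5, Ebf1, Irf8 and Spic did not, with 95% intervals of -0.10 to 0.32, -0.13 to 0.26, -0.11 to 0.44 and -0.31 to 0.16. The Spi1 call was lost when B6x129 (0.30) or B6xCAST (0.30) was left out, and the Bach2 call when B6xC3H (0.18), B6xPWK (0.19) or B6xSPRET (0.21) was left out. Without scaling, 3 of the 10 loci were called.

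At the deposited FDR, presence of a hotspot at the start separated the tissues less than cover did. A start was called open when a hotspot lay within 1 kb of the annotated gene start. In B cells 9 of the 10 starts were open in all 5 sets, against 52.3% of all protein-coding genes, and the exception was Spic. The starts of Ebf1, Irf4, Irf8 and Bach2 were open in all 20 adult sets. Spib was open in 5 of 5 B cell and 5 of 5 lung sets and in no liver or kidney set. Its start hotspots had scores (−log10 of the false discovery rate) of 1.95 to 8.10 in lung and 42.9 to 100 in B cells. Pax5 was open in all B cell and lung sets, in 1 liver set and in 3 kidney sets, and Spi1 in all B cell, lung and liver sets and in 2 kidney sets. Pou2af1 was open in 5 lung, 3 liver and 4 kidney sets and Ikzf1 in 4, 3 and 4. Thus 5 of the 10 genes (Pax5, Spib, Spi1, Pou2af1 and Ikzf1) were open in every B cell set but not in every liver and kidney set, a pattern found in 3.24% of all genes. With only the 75000 highest-scoring hotspots of each set, 9, 6, 3 and 4 of the 10 starts were open in all B cell, lung, liver and kidney sets. In the same order, 51.4, 53.6, 50.2 and 53.4% of all protein-coding genes were.

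Width at the start was more distinct. At Pax5 the hotspots reaching the start window were 5589 bp wide in total in B6x129 B cells, 2164 bp in B6xC3H, 7914 bp in B6xCAST, 6224 bp in B6xPWK and 2570 bp in B6xSPRET, while lung had 201 to 846 bp. At Spib they were 4266, 1880, 7902, 5754 and 4121 bp in the same order, and 219 to 778 bp in lung. In both genes the hotspots reaching the start window were thus narrower in lung than in B cells. The start base itself lay in a hotspot in 1 B cell set and 0 lung sets at Pax5. At Spib it did so in 5 B cell sets and 1 lung set. Pou2af1 had 1803 to 2420 bp in B cells and at most 1153 bp in the other adult sets, and Irf4 1400 to 3768 bp and at most 1304 bp. In mESC the Irf4 start had 2119 bp. These 4 starts were wider in every B cell set than in all 15 other adult sets, which held for 1.34% of all genes. Ebf1 came close, with 1713 to 4806 bp in B cells against up to 1813 bp in kidney. Bach2 was nearly constant, with 2120 to 2446 bp in B cells and 1539 to 2319 bp in the other adult sets. These widths were not scaled to the size of the set.

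**Figure D3:**
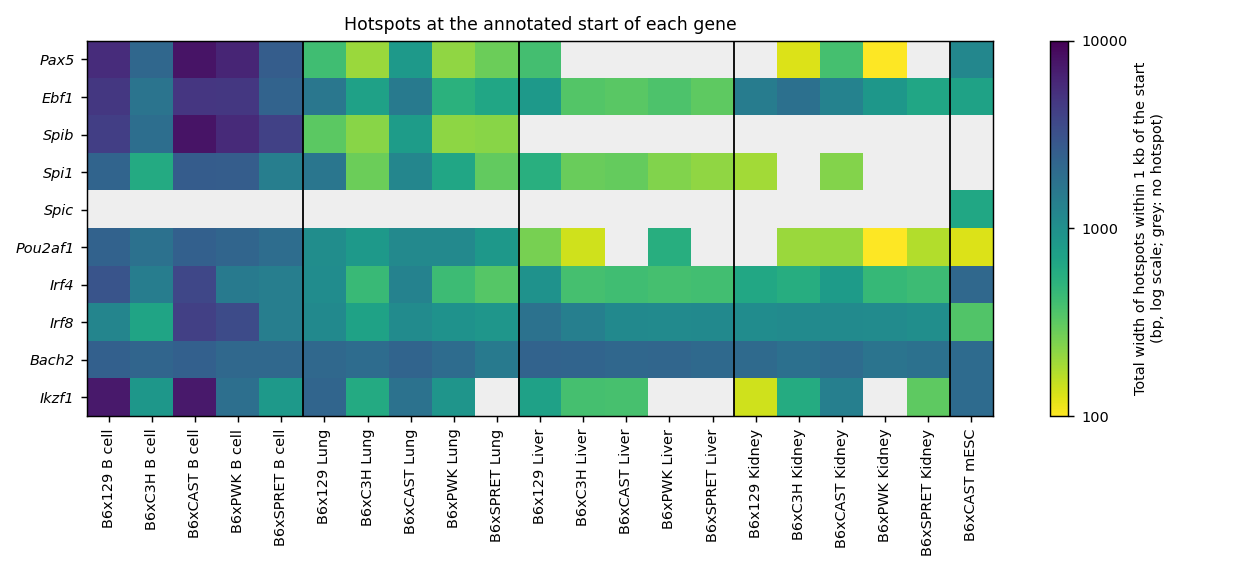
Total width in bp (colour, log scale) of the hotspots that overlap the window of 1 kb on both sides of the annotated start, for the 10 genes (rows) in the 20 adult sets and the mESC set (columns). Grey cells have no hotspot, as for Spib in liver and kidney and for Spic in all adult sets. Among the darkest cells are Pax5 and Spib starts in B cells and the Ikzf1 start in B6x129 and B6xCAST B cells. In the other B cell sets the Ikzf1 start had 838 to 1859 bp.

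Other annotated starts of coding transcripts gave further patterns, with starts closer than 1 kb to each other read as 1 window. Read this way, the Ikzf1 starts were open in all 20 adult sets. The start of transcript Spic-201 on chromosome 10 (88683023), 1992 bp inside the gene, had a hotspot in 5 B cell sets, 5 liver sets, 1 lung set and 1 kidney set, while of the 21 sets only mESC had a hotspot at the outermost start. Spi1 has a second coding start 13706 bp downstream, beside the widest B cell hotspot of the locus (1840 bp, B6xCAST). It was open in all B cell, lung and liver sets and in 2 kidney sets. At Pax5 the start of Pax5-220, 64764 bp into the gene, was open in all 5 liver sets, in 1 lung set and in no B cell set. The start of Pax5-208, 6481 bp into the gene, was open in all 20 adult sets.

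Hotspots of the 20 adult sets were merged into regions, which gave 695 regions in the 10 loci. A region was called B cell only when it had a hotspot in at least 4 of 5 B cell sets and no lung, liver or kidney set had one. There were 31 such regions, 4.46% of those in the loci, against 0.744% of the 745754 regions of the genome. They lay in 7 of the 10 loci, where 18.1% of all protein-coding loci had at least 1. Ebf1 had 10, Pax5, Ikzf1 and Bach2 5 each, Spib 3, Irf8 2 and Pou2af1 1, and Spi1, Spic and Irf4 had none. This depended on the hotspots used: at FDR 1% Irf4 had 1, and with the 75000 highest-scoring hotspots of each set Irf4 had 3 and Spi1 and Spic 1 each, when 37% of all loci had at least 1. These counts were not scaled to length, and the loci span 46.1 to 431 kb. Per 100 kb of locus at the deposited FDR, Spib had 6.5, Ikzf1 3.9, Irf8 3.3, Ebf1 2.3, Pax5 2.2, Pou2af1 1.5 and Bach2 1.3. By this measure 99.9% of all loci lay below Spib and 88.9% below Bach2. Of the 31 regions 24 lay in introns, 4 upstream and 3 downstream, and none spanned a gene start. Irf4, with the largest difference in cover of the 10, had no region of this kind at the deposited FDR. Its widest B cell hotspot, 3768 bp across the start in B6xCAST, overlapped hotspots of all 15 other adult sets, which covered 336 to 1779 bp of it.

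The 10 regions of Ebf1 were all intronic, between 44705 and 356416 bp from the start, and 4 of them lay within 277698 to 283907 bp. The highest median score among them was 14.9 (−log10 of the false discovery rate). The 5 regions of Pax5 lay at -6389, 10673, 31586, 35947 and 85544 bp, and those at 31586 and 35947 bp also lay in Gm12462. The 3 regions of Spib were not in the gene itself: 1 lay in Mybpc2 downstream of it and 2 in Pold1 upstream of it. The Spib region at chr7:44546221-44546717 had the highest median score of the 31, 24.3. The 5 regions of Bach2 lay between 152692 and 306923 bp into the gene, and each was found in 4 of the 5 B cell sets. A classification by tissue put 9 liver only regions, 8 lung only regions and 31 regions of other organs without B cells in the same locus.

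**Figure D4:**
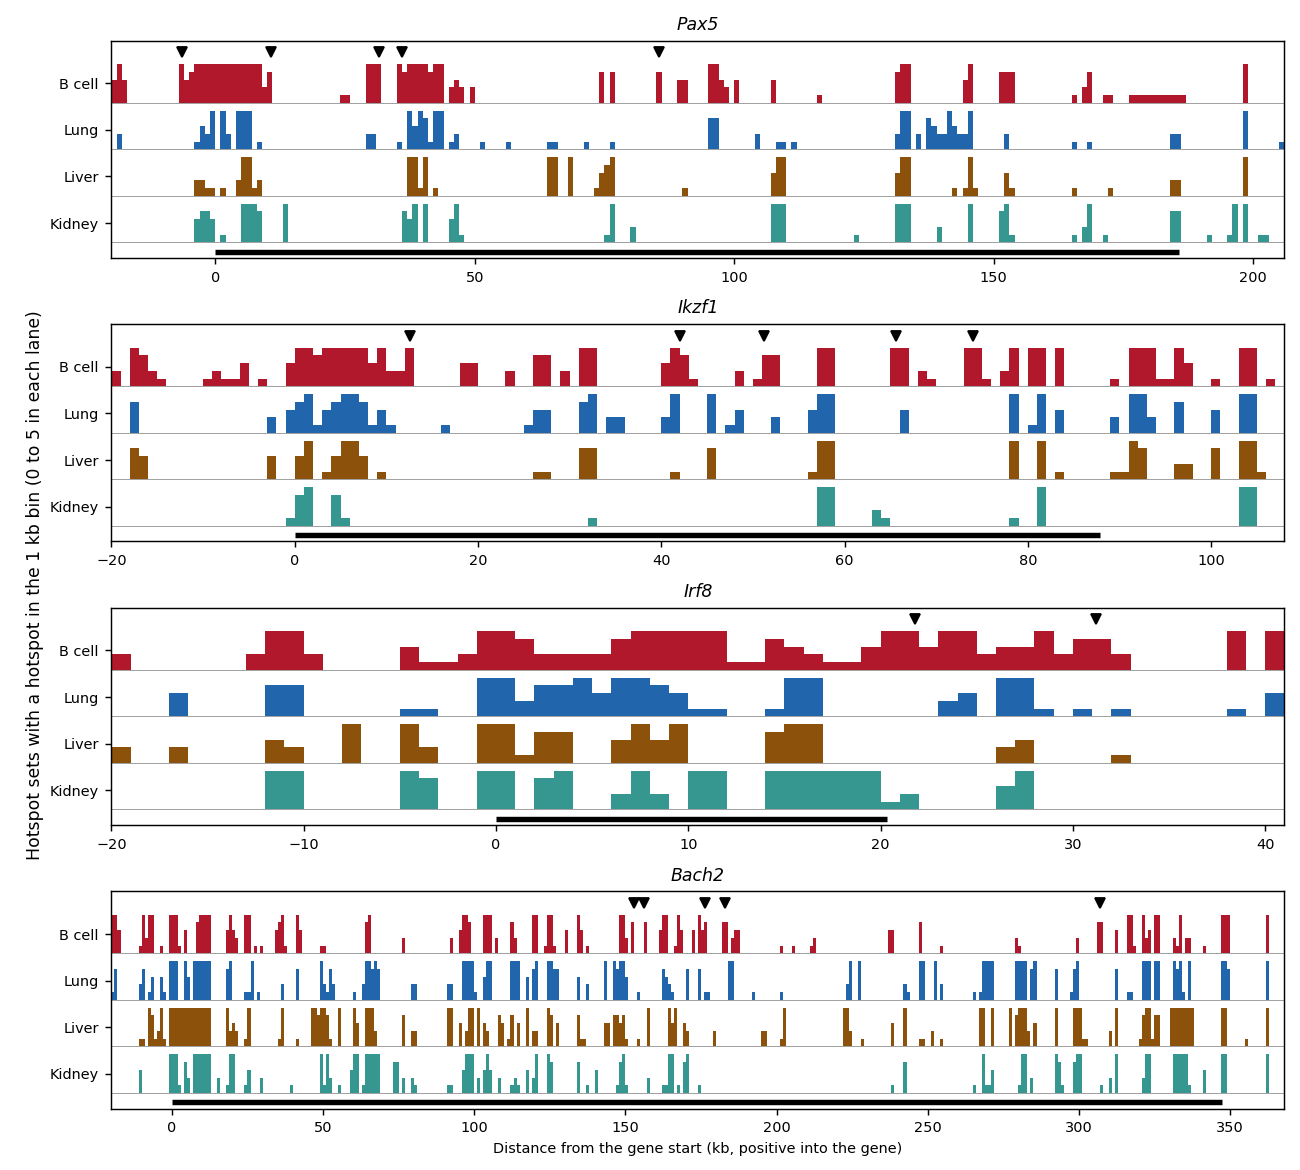
Maps of Pax5, Ikzf1, Irf8 and Bach2: distance from the gene start in kb (x axis, positive into the gene) and, in 4 lanes, the number of sets of a tissue (0 to 5) with a hotspot in each 1 kb bin. Black bars mark the genes and triangles the B cell only regions; B cell signal is dense around the Pax5 and Ikzf1 starts, while the Bach2 map is filled in all 4 tissues.

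The short patterns were counted in the 31 regions and, with no test, in other regions. In the central 300 bp, 6 of 31 (19.4%) held GAGGAAG, against 25.9% of the 5547 B cell only regions of the genome and 10.7% of the 173824 regions open in lung, liver or kidney without B cells. ATGCAAA was in 5 of 31 (16.1%), against 15% and 5.46%, and CCCNNGGG in 5 of 31 (16.1%), against 12.2% and 7.46%. CACCTG was in 25.8% (27.4 and 20.1% in the same 2 sets), TGTGGT in 29.0% (28.8 and 20.6%), TGGGAA in 25.8% (21.5 and 28.1%) and GGAANNGAA in 6.45% (14.8 and 8.97%). GAGGAAG, GGAANNGAA and TGGGAA share letters, so that 1 stretch can match more than 1 of them. The capitals in the Spib promoter are matches to CCCNNGGG, and 13.7% of 32851 RefSeq promoters of 300 bp held this pattern.

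In mESC the loci had another order. The Pax5 locus had 39 hotspots covering 17777 bp and a relative cover of 4.89, above 90.1% of loci tested, and its start was open. Irf4 followed with 2.75 and Spic with 2.64, and the Spic start that was closed in all adult sets had a hotspot of 645 bp. Pou2af1 held 1 hotspot of 128 bp, a relative cover of 0.12 with 2.55% of loci below it. Only 1 of the 31 B cell only regions, in Pax5, overlapped an mESC hotspot, and none overlapped a CTCF ChIP-seq hotspot of the same cells. For the 38 regions of the loci found in at least 4 sets of every adult tissue, these numbers were 29 (76.3%) and 21 (55.3%), beside 83.5 and 65.3% of such regions in the genome.

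Other genes of the B cell program were read in the same fit. Of 20 further B lymphoid regulators 16 had a higher relative cover in B cells than in the mean of the other tissues, where 50.4% of all loci did, and Id3 was lower by a difference of -0.18 ± 0.07 (SE, limma, adjusted p = 0.035). Their median difference was 1.16. All 16 genes of a list of B cell targets were higher, with a median of 1.36, below the 1.98 of the 10 loci and above the 0.21 of all loci. The locus most like each member in relative cover over the 20 sets was Tmbim4 for Spib (Pearson r = 0.98), Mapk6 for Spi1 (0.92), Mfhas1 for Spic (0.825), Tspoap1 for Pou2af1 (0.98), Dock10 for Irf4 (0.99), Grap for Irf8 (0.96), P2rx7 for Bach2 (0.94) and Slamf6 for Ikzf1 (0.99). These values describe sets that share tissue and scaling.

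RNA counts of the 10 genes were low in the deposited tables. The 17 samples held 283725 to 809337 expected counts each. Pax5 had 1, 2, 5, 6 and 1 counts in the 5 B cell samples and none in any other sample. Ebf1 had 14, 24, 13, 23 and 14 in B cells, 7, 3, 0 and 0 in lung and at most 1 elsewhere, and was the only one of the 10 to pass the filter on low counts. It was higher in B cells (edgeR quasi-likelihood test, adjusted p = 5.24e-06), where 32.8% of 4479 genes tested were called higher. Ebf1 entered the test through its B cell counts, so the direction of this call was largely set by the filter. Without any 1 of B cell samples 2, 3, 4 and 5 it no longer passed the filter, and 0 of the 10 genes were tested. Irf8 had 8, 5, 6, 21 and 14 counts in B cells and at most 1 in any other sample, and Ikzf1 11, 5, 3, 14 and 1 against at most 1. Bach2 was not confined to B cells. It had 2, 3, 7, 7 and 4 counts there, 5, 3, 1 and 4 in liver and at most 1 in lung and kidney. Scaled to the sample totals, its means in liver and B cells were close. Spic was listed at 0 in all 5 B cell samples.

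Annotated genes on the opposite strand of the same loci carried many more counts. Gm12462, antisense to Pax5, had 689, 576, 384, 906 and 210 counts in B cells, 9 to 48 in lung and 0 to 3 in liver and kidney. 5730488B01Rik, also antisense to Pax5, had 292 to 1045 in B cells and at most 41 elsewhere. Gm12000, opposite to Ikzf1, had 143, 95, 81, 167 and 31 in B cells and 5 to 16 in lung, and Gm12158, opposite to Ebf1, 35 to 120 in B cells. Bach2os, opposite to Bach2, had 83 to 225 in B cells, 14 to 64 in lung, 2 to 13 in liver and 2 to 8 in kidney. All 6 opposite-strand genes passing the filter were called higher in B cells (edgeR quasi-likelihood test), against 32.8% of the 4479 genes tested. Bach2os had a log2 difference of 2.76 (edgeR, adjusted p = 4.57e-09) and Gm12462 an adjusted p of 2.06e-13 (edgeR). Most of the 6 had few counts outside B cells and passed the filter largely through the B cell samples. The direction of these calls was thus largely set by the filter. Among 2511 pairs of a coding gene and an overlapping non-coding gene of the other strand with at least 10 counts in B cells, the non-coding gene had more counts in 68.9%. The kit marks strand, and the strand setting of the counting is not given in the sources used here, so that counts of a gene and of its antisense partner cannot be told apart.

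**Figure D5:**
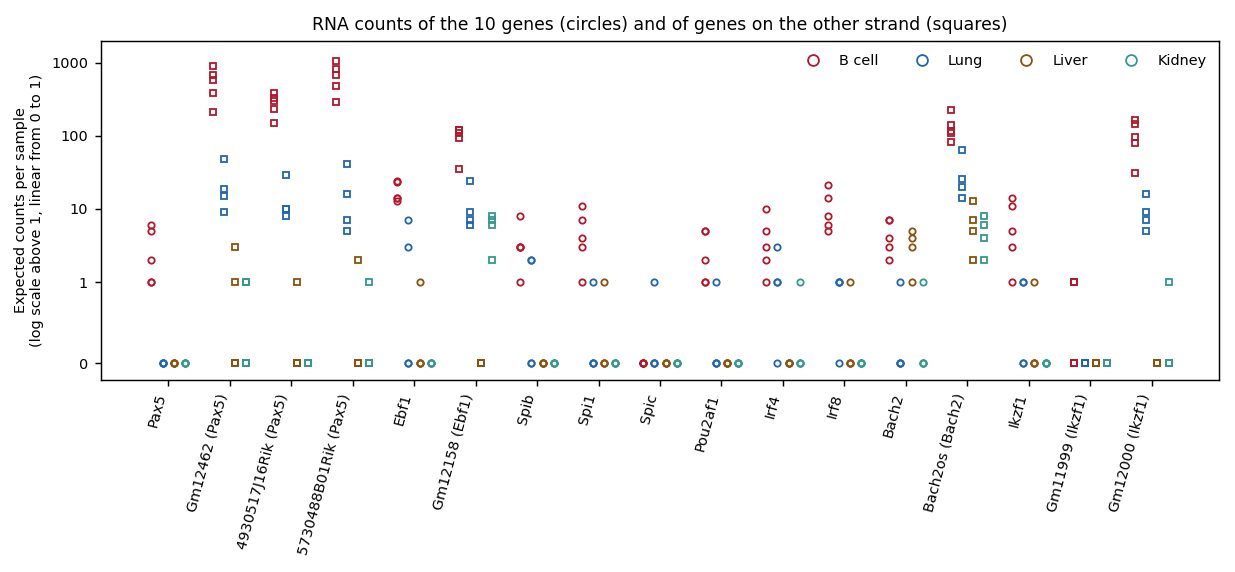
Expected RNA counts (y axis, logarithmic above 1 and linear from 0 to 1) in each of 17 samples for the 10 genes (circles) and for annotated genes on the opposite strand of the locus named in brackets (squares), by tissue (colour). B cell counts are highest for the opposite-strand genes of Pax5, up to 1045, while Pax5 itself stays at 6 or less.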

How the data were processed

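DNase-seq hotspots were available for 20 adult conditions and mESC, and RNA-seq for 17 samples. Per the labels and the study's methods, reads were trimmed with Trimmomatic and mapped with BWA to mm10, and the authors called hotspots at FDR 5%, by the program hotspot2, on data pooled over the samples of a hybrid and tissue. The deposited lists give a −log10 FDR for each hotspot, with a ceiling of 100, used here to rank and filter. For RNA the authors deposited expected counts per gene from STAR and RSEM, which are not normalized and were rounded here. The members and gene lists were chosen with earlier results of these data known.

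Relative cover was tested with limma (3.58.1, R 4.3.3) on log2(relative cover + 0.5) with terms for tissue and hybrid, over 18204 loci with a mean cover of at least 1%, with Benjamini-Hochberg adjustment. The pooled set was the unit, so the error is the spread between hybrids. RNA was tested with edgeR (4.0.16, TMM, filterByExpr) with tissue as the term, and with DESeq2 (1.42.0) as an alternative. In the count of 21728 genes each symbol was used once. All 10 members passed the filter on cover. Named genes were the 10 members, for each the locus of highest Pearson r, and list genes called against the majority. Genome sequence was read with pysam (0.24.0). Both fits were tested on simulated data. Alternatives were a stricter FDR of 1%, equal set sizes of 75000 hotspots (loci as in the main filter), number in place of cover, no scaling, a pseudocount of 0.1, no filter, flanks of 0 and 50 kb, no hybrid term, other definitions of a start and of B cell only regions, and leaving out each hybrid or RNA sample. Nothing says that RNA samples of a tissue came from separate animals, so p-values measure the spread between these samples. Depth in reads was not used here. All RNA samples entered by tissue only, and the hybrid of 1 B cell RNA sample differs between sources.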

Additional observations from a re-analysis of the deposited data

Results flagged for a closer look

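In 3 of the 40 groups of 5 hybrids (10 loci in 4 tissues), 1 set lay far from the other 4 by Dixon's criterion, and chance alone gives about 1 in 20. The relative cover of Spic in B6xSPRET lung was 0.80, against 0.55 to 0.60 in the other lung sets. The relative cover of Spic in B6xCAST kidney was 1.23, against 0.65 to 0.81. The relative cover of Pou2af1 in B6xC3H kidney was 0.98, against 0.48 to 0.60. All 3 are values of loci with few hotspots in those sets (3 in the Spic lung set, 9 in the Spic kidney set and 5 in the Pou2af1 set).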

How the results depend on the processing

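Scaling mattered most. Without it the loci called higher numbered 1467 of all loci for B cells against the other tissues, 1541 against lung and 1323 for lung against liver and kidney, where 3 of the 10 members passed, and Bach2 turned to -0.19, -0.10 and -0.13 in these contrasts. Counting hotspots in place of base pairs gave 3330 loci higher in lung than in liver and kidney. With flanks of 50 kb Spic turned to 0.22 in that contrast, and with no flank it was -1.22. Of 140 repeats of member values, 137, 136 and 126 kept direction and call in the 3 contrasts. Members with an open start in all sets numbered 5 in lung at the start base itself, and in liver 8 with any coding transcript start and 3 with the 75000 highest-scoring hotspots. The B cell only regions numbered 77 with those hotspots and 15 where all 5 B cell sets were required. In RNA with no filter beyond 1 count, 9 of the 10 members and 3140 of the 28412 genes tested were higher. Leaving out single samples gave 0 to 1 members, with 0 without B cell sample 2, 3, 4 or 5, when Ebf1 no longer passed the filter. The causes were not tested. The B cell sets have the fewest hotspots, and the RNA totals limit what low genes can show.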

Other observations

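Irf8 in B cells was split by the type of the fathers' strain, a comparison chosen after its values were seen and not tested. The 3 hybrids from wild-derived strains (CAST/EiJ, PWK/PhJ and SPRET/EiJ) had a relative cover of 13.7 to 17.9 in B cells and the 2 from classical inbred strains (the fathers of B6x129 and B6xC3H) 7.71 to 8.11. The ratio of the means was 2.08, above that of 95.0% of loci, whose median was 0.95, and 5.98% of all loci had the 3 sets above the other 2. None of the other 9 loci did so in B cells. Pou2af1 (4.13 to 4.73 against 4.87 to 5.08) and Bach2 (3.10 to 3.797 against 3.806 to 4.21) lay in the opposite order. At Bach2 the nearest sets were almost equal, and the share of all loci in that order was not counted. In lung the Irf8 ratio was 1.37, with 3.19 to 4.03 against 2.43 to 2.67, and in kidney it was 1.004. A region upstream of Irf8 at chr8:120734679-120735162 had a hotspot in the B6xCAST and B6xPWK B cell sets (484 and 370 bp) and in no other adult set. The B6xC3H and B6xSPRET B cell sets were the smallest and B6xCAST the largest, and their part in these values was not tested.

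The widest hotspot of the 10 loci in B cells came from B6xCAST at 8 loci and from B6x129 at 2 (Ebf1 and Ikzf1). At Ikzf1 the start hotspots spanned 7347 bp in B6x129, 7322 bp in B6xCAST and 1859 bp in B6xPWK, but 868 bp in B6xC3H and 838 bp in B6xSPRET.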
